A study of Mus musculus with 2 samples.

Results

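The microRNA families miR-297, miR-466, miR-467 and miR-669 were represented by 68 of the 1973 loci counted in embryonic mouse midbrain. These are all rows whose gene symbol names one of the 4 families, 5 for miR-297, 25 for miR-466, 17 for miR-467 and 21 for miR-669. The samples were midbrain of B6NCrl embryos at embryonic day 13.5, male and female embryos pooled, and small RNA below 30 nt was sequenced. The labels call the tissue healthy and name no treatment or genetic change, and there is 1 group of 2 biological replicates with 1 library each. The donor record is identical for both replicates, and to what extent their pools were independent is not stated. The p-values weigh the difference between these 2 libraries against counting error only. They take no account of other spread between the samples, and a difference may be technical. No other tissue or age was measured, and the comparisons are therefore between loci, between families and between the 2 libraries.

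MicroRNAs are cut from hairpins in longer transcripts by Drosha and Dicer, and the short mature strand guides silencing of target messenger RNAs through its seed, bases 2 to 8. The 4 families are rodent repeats rich in UG and CA dinucleotides. Most copies lie in a single intron of Sfmbt2, a gene of the Polycomb group that is imprinted and expressed from the paternal allele in extraembryonic tissue, and the cluster is best known from placenta and from embryonic stem cells.

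Same-strand counts over all rows came to 5093743 in replicate 1 and 2935841 in replicate 2. Levels are given as CPM, each count scaled to its library's total. For 1 locus without a read the upper limit, taken as 3 counts, is 0.589 CPM in the first library and 1.02 CPM in the second. Intervals and limits cover counting error only. Multimapping reads were left uncounted by the authors. There were 3827354 of them in replicate 1 and 2590773 in replicate 2, or 142 and 145 for each read counted at the 4 families, and the tables do not say from which loci they came.

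Counts of microRNA markers were set beside the tissue label. The lists were chosen with earlier results of these data known, so they are no independent check of the label. All 14 rows of the neural list had counts, 8 of them above 100 CPM in both replicates, and the list summed to 52762 CPM in replicate 1 and 51021 CPM in replicate 2, led by Mir149 (18501 and 19218 CPM) and Mir135b (11427 and 10751 CPM). The neuronal Mir124a-1, Mir124a-2 and Mir124a-3 and the neural Mir9-2 were low in that list, each between 1.57 and 9.42 CPM in both libraries. Mir9-3 stood at 401 and 353 CPM. Multimapping reads are in none of these values, and how many of them came from these loci is not known. The miR-290 to miR-295 cluster of pluripotent cells and early trophoblast summed to 31.2 and 33.7 CPM over 7 loci, all with counts and led by Mir293. The miR-302 cluster, also known from pluripotent cells but not on the list and looked up after the other values were seen, was higher, with Mir302a at 793 and 729 CPM, Mir302d at 628 and 634, Mir302b at 446 and 445 and Mir302c at 54.0 and 56.9. Blood markers summed to 265 and 311 CPM, the endothelial Mir126a stood at 16256 and 21170 CPM, and the liver marker Mir122 at 58.9 and 139 CPM. The 4 muscle loci summed to 14.7 and 10.6 CPM, with Mir1a-1, Mir133a-1 and Mir133a-2 at 0. The part of any other cell type in the counts of the 4 families was not tested.

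Sequences from RefSeq (build GRCm38.p6) were matched by symbol for 8 of the 68 loci, all of them outside Sfmbt2. They are shown because they carry the simple repeats that mark these families, although none of the 8 loci had a count. Capitals mark the seed.
miR-466i-3p: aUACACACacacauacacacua
miR-466j: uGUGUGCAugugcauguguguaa
miR-466k: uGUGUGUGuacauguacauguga
miR-466q: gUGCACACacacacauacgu
miR-467f: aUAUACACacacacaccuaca
miR-467g: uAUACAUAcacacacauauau
miR-467h: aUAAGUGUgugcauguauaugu
miR-669n: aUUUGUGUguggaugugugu

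The 8 mature sequences had 8 different seeds, so among these 8 a shared family name did not mean a shared seed. Only miR-466i-3p names its hairpin arm, and strands of different arms may be compared here. The seed of miR-467h was also that of miR-668-5p in the RefSeq table, and the other 7 seeds occurred in no other mature microRNA of that table. None of the 59 loci in Sfmbt2 had a mature sequence matched there, so seeds shared with them could not be seen. Runs in which U and G, or C and A, alternate without a break reached 12 bases in miR-466q and in miR-467f. The mature sequence of miR-467h was found whole in 2 other annotated hairpins, neither of them in Sfmbt2, and the other 7 were found in none.

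Among counted reads, which leave out multimapping reads, the miR-467 family held most of those of the 4 families. It stood at 4332 CPM in replicate 1 and 5110 CPM in replicate 2, or 0.433% (95% exact Clopper-Pearson interval 0.427 to 0.439) and 0.511% (0.503 to 0.519) of all counts. The miR-669 family followed at 937 and 961 CPM, with 0.0937% (0.0911 to 0.0964) and 0.0961% (0.0925 to 0.0997). The miR-466 family reached 28.1 and 30.0 CPM and the miR-297 family 7.46 and 5.11 CPM. The order of the families was thus the same in both libraries, and no pair of families overlapped. Counts of miR-467 were 4.62 and 5.32 times those of miR-669, those of miR-669 were 33.4 and 32.0 times those of miR-466, and those of miR-466 were 3.76 and 5.87 times those of miR-297. As a share of the counted reads of the 4 families, miR-467 took 82.7% ± 1.43 and miR-669 took 16.7% ± 1.37 (SD, n = 2). The miR-466 family took 0.510% ± 0.0271 and miR-297 took 0.112% ± 0.0403 (SD, n = 2). How multimapping reads would change these shares or the order is not known.

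In these counts, which leave out multimapping reads, the level of a family did not follow its number of loci. The miR-466 family had the most loci, and 1 of its 25 reached 10 counts over both replicates. For miR-467 this was 3 of 17, for miR-669 5 of 21 and for miR-297 1 of 5. Over all 4 families, 10 of 68 loci (14.7%) reached 10 counts, against 466 of 1973 (23.6%) in the whole tables. A further 12 loci had 1 to 9 counts, and 46 (67.6%) had none in either library, against 1254 rows (63.6%) in the whole tables. The 3 highest loci held 82.7% ± 1.44 (SD, n = 2) of the families' reads and the 6 highest 98.8% ± 0.151.

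Mir467c led the families, with 8392 counts in replicate 1 and 5916 in replicate 2, or 1648 and 2015 CPM (1831 ± 260, SD, n = 2). It ranked 72 of 1973 loci by mean CPM. Mir467d had 6744 and 4944 counts, 1324 and 1684 CPM (1504 ± 255), and Mir467e had 6926 and 4141 counts, 1360 and 1411 CPM (1385 ± 35.9). Mir467c was highest in both libraries, whereas Mir467d and Mir467e changed places, Mir467e being the higher of the pair in replicate 1 and the lower in replicate 2. The count of Mir467d was 0.974 times that of Mir467e in replicate 1 and 1.19 times in replicate 2, so the order of these neighbours was not resolved. Named after their values were seen, the other miR-467 loci with a count were Mir467b, with 2 and 1 counts, and Mir467a-1, with 1 count in replicate 1.

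In the miR-669 family, Mir669o had 2456 and 1455 counts, 482 and 496 CPM (489 ± 9.50, SD, n = 2). Mir669l had 1634 and 991 counts, 321 and 338 CPM (329 ± 11.9), and Mir669c had 511 and 280 counts, 100.3 and 95.4 CPM (97.8 ± 3.50). Mir669e had 118 and 75 counts (23.2 and 25.5 CPM), and Mir669h had 49 and 16 counts (9.62 and 5.45 CPM). These 5 loci kept 1 order in both libraries with no overlap between neighbours. Mir669o exceeded Mir669l 1.5 times and 1.47 times by counts, and Mir669l exceeded Mir669c 3.20 times and 3.54 times. Also named after their values were seen, below them lay Mir669a-3 with 3 and 1 counts and Mir669f with 2 and 2.

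The miR-466 and miR-297 families each rested on a single locus. Mir466n had 134 and 80 counts, 26.3 and 27.2 CPM (26.8 ± 0.667, SD, n = 2), close to Mir669e. The next miR-466 loci were Mir466b-3, with 3 and 4 counts, and Mir466o, with 1 and 2. Mir297a-2 had 36 and 14 counts, 7.07 and 4.77 CPM (5.92 ± 1.63), and Mir297b had 2 and 1, while the other 3 miR-297 loci had none. Of the remaining miR-466 loci, Mir466 had 3 counts in replicate 1 and Mir466d, Mir466g, Mir466l and Mir466m had 1 count each in 1 library.

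**Figure D1:**
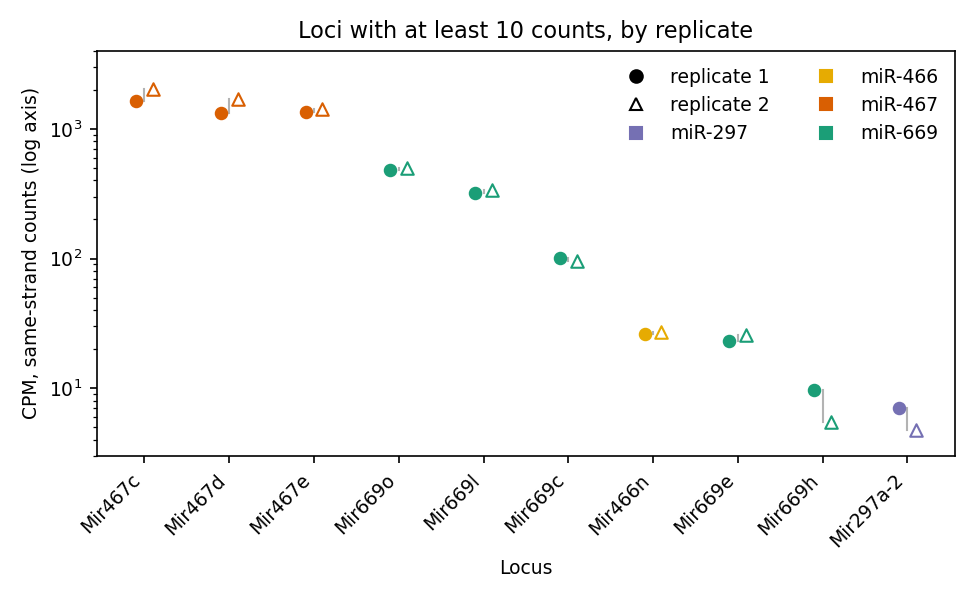
Same-strand CPM (log axis) of the 10 loci that reached 10 counts, with a filled circle for replicate 1, an open triangle for replicate 2 and a grey line spanning both, coloured by family. The 3 miR-467 loci lie between 1324 and 2015 CPM, above every miR-669 locus, and Mir297a-2 is lowest at 7.07 and 4.77 CPM.

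All counts of the 4 families fell on loci in Sfmbt2. The 59 loci within the gene, on its strand, summed to 27019 counts in replicate 1 and 17925 in replicate 2, 5304 and 6106 CPM. The 9 loci elsewhere, 5 of miR-466 (Mir466f-4, Mir466i, Mir466j, Mir466k and Mir466q), 3 of miR-467 (Mir467f, Mir467g and Mir467h) and Mir669n, had no count in either library, which allows up to 0.589 and 1.02 CPM for their sum. With 2 replicates no test between the groups of loci was made, since loci are not replicates. Of the 9, Mir466q lies within Tnik on the same strand, and Mir466i, Mir467f, Mir467g and Mir669n lie within Cdk13, Fxr2, Grk4 and Slc30a7 on the opposite strand. Mir466k lies opposite Gm37240, and Mir466f-4, Mir466j and Mir467h lie in no annotated gene but their own.

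Sfmbt2 spans chromosome 2 from 10370510 to 10595253 on the plus strand of mm10. Its 59 hairpins of these families lie within 1 intron of 62.5 kb, from 10461473 to 10523944, which is intron 10 of the transcript Sfmbt2-201. They cover 51.6 kb of it, from Mir466m at 10466663 to Mir669h, which ends at 10518279. From the 5′ end of the intron, the loci with at least 10 counts were Mir669e (10467495 to 10467613), Mir669l (10468971 to 10469068), Mir297a-2 (10472254 to 10472343), Mir467c (10473931 to 10474027), Mir467e (10505721 to 10505807), Mir467d (10507630 to 10507714), Mir669c (10509296 to 10509404), Mir466n (10513741 to 10513834), Mir669o (10514300 to 10514395) and Mir669h (10518155 to 10518279). No exon of that transcript overlaps any of them.

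Counts lay at the 2 ends of the array. The 15 loci before Mir467a-1 held 10186 and 7002 counts (2000 and 2385 CPM), and the 21 loci after Mir467a-10 held 16830 and 10922 (3304 and 3720 CPM). Between them, from Mir467a-1 to Mir467a-10, 23 loci held 3 counts in replicate 1 and 1 in replicate 2. These limits were set after the counts had been seen, and no test was made on them. The miR-467 hairpins were evenly spaced. Of the 13 steps from 1 miR-467 hairpin to the next, 11 measured between 2.4 and 2.5 kb, with a median of 2.45 kb.

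**Figure D2:**
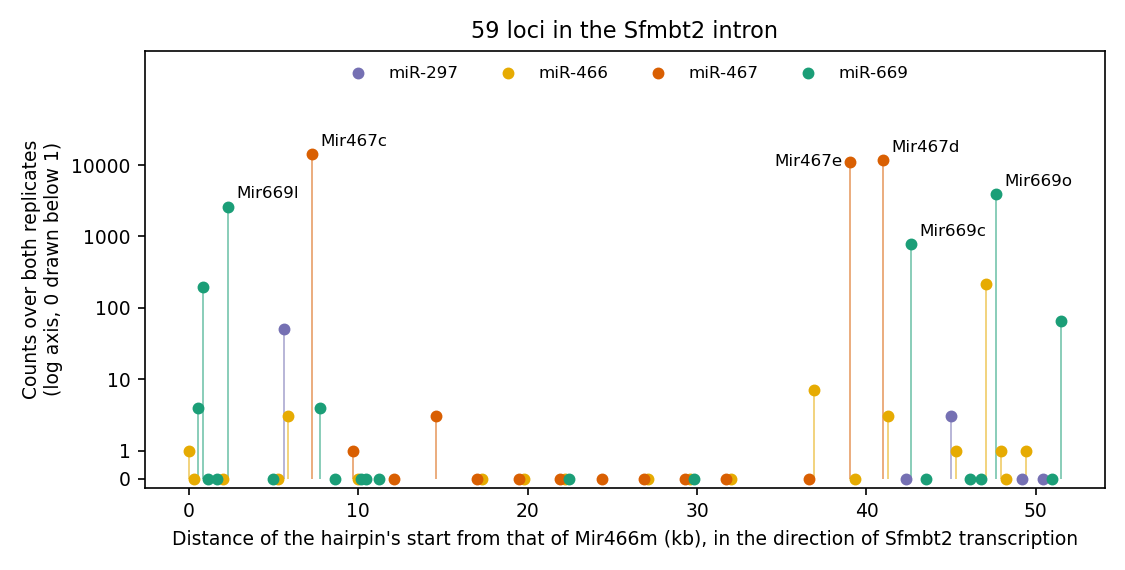
Counts over both replicates (log axis, 0 drawn below 1) of the 59 loci in the Sfmbt2 intron, by distance in kb from the start of Mir466m, coloured by family. High loci stand in the first 8.76 kb and after 36.9 kb, and the 23 loci from Mir467a-1 to Mir467a-10 have at most 3 counts each.

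Repeat copies also differed in how much hairpin sequence they shared. Each hairpin was cut into all windows of 20 nt, and a window was counted as its own where it occurred in no other annotated microRNA hairpin on either strand. The median share of own windows was 32.8% in the 68 loci and 100% in the 1826 other rows that had an annotated hairpin. It was 11.1% in the 48 other microRNA rows of the same intron, so sharing was not particular to the named families. Of the 68 hairpins, 66 had 20 nt or more in common with another hairpin, the exceptions being Mir466g and Mir669n. The counts of the other 66, including all 10 named loci with at least 10 counts, are uncertain for this reason. Mir467a-2, Mir467a-4, Mir467a-5, Mir467a-7, Mir467a-8 and Mir467a-9 had the same hairpin sequence, as did Mir467a-3, Mir467a-6 and Mir467a-10.

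Hairpins with no window of their own numbered 20, all in Sfmbt2, and 19 of these loci lay in the middle stretch. None of the 20 reached 10 counts, and Mir467a-1, with 1 count, was the single one with a read. In the other rows of the tables, 2 of 238 such hairpins (0.840%) reached 10 counts. In Sfmbt2, 2 of 26 loci with some own windows but under 50% reached 10 counts, Mir467d with 37.9% own windows and Mir297a-2 with 32.4%, against 2 of 269 (0.743%) in the other rows. Of 13 loci in Sfmbt2 with at least 50%, 8 (61.5%) reached 10 counts, against 452 of 1319 (34.3%) in the other rows. Mir466g with 100% and Mir466l with 85.3% had 1 count each, and Mir466h with 93.5%, Mir669b with 87.2% and Mir669i with 73.1% had none. The 9 loci outside Sfmbt2 held between 38.2% and 100% own windows, with a median of 76.7%, and had no count. Low counts were found at loci with much own sequence as well as at loci with none. The part of sharing in the low counts was not tested. Copies elsewhere in the genome were not searched.

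**Figure D3:**
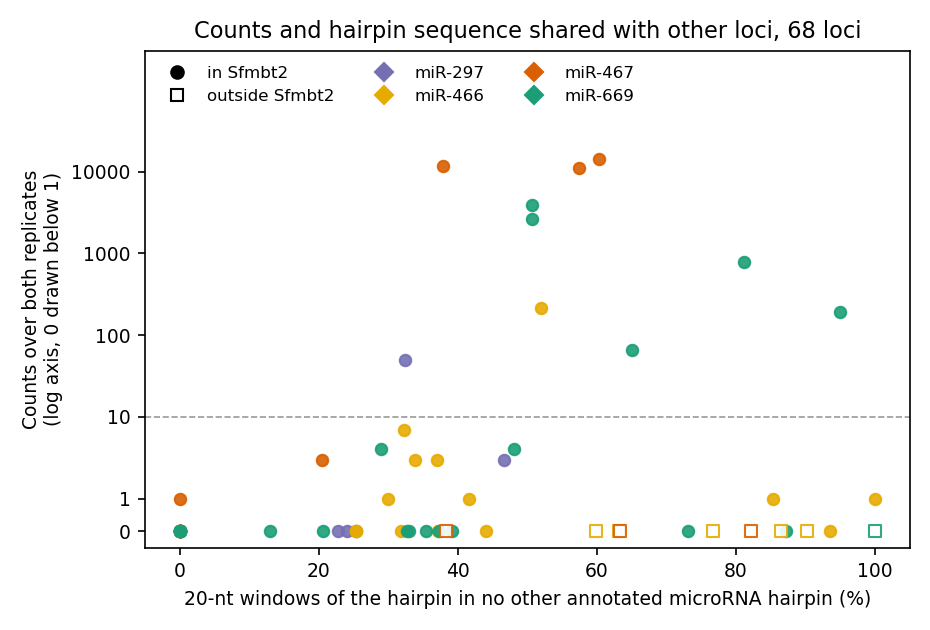
Counts over both replicates (log axis, 0 drawn below 1) against the percentage of 20-nt hairpin windows found in no other annotated microRNA hairpin, for 68 loci coloured by family, filled circles in Sfmbt2 and open squares outside it. The dashed line marks 10 counts, and at 0% own windows all 20 loci lie below it.

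The 3 abundant miR-467 hairpins were near copies of each other and of Mir467a-2, 1 of the uncounted hairpins. Mir467c and Mir467d were identical at 95.3% of aligned positions, Mir467c and Mir467e also at 95.3%, and Mir467d and Mir467e at 94.1%. Against Mir467a-2, which had no count, Mir467d was identical at 96.2%, Mir467c at 93.7% and Mir467e at 91.3%. The 5 counted miR-669 hairpins were less alike, at 66.4% (Mir669c and Mir669h) to 82.7% (Mir669o and Mir669l).

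The hairpins of the 4 families were poor in GC and rich in alternating bases, as were the other microRNA hairpins of the intron. Their hairpins had a median GC content of 37.2%, against 51.7% in the 1826 other rows that had an annotated hairpin. The longest alternating run of U and G or of C and A had a median of 9 bases, against 4. In the 48 other microRNA rows of the intron these medians were 38.9% and 8 bases, close to those of the families. Within the families the 10 loci with at least 10 counts had a median run of 8.5 bases (7 to 15), the other 49 loci in Sfmbt2 had 9 (7 to 14) and the 9 outside had 14 (9 to 28), Mir466q holding the longest. The loci in Sfmbt2 above and below 10 counts thus overlapped in this measure.

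The same intron held 48 further microRNA rows that carry no family name. They summed to 20 counts in replicate 1 and 7 in replicate 2, 42 of them had none, and 1 reached 10 counts, Gm22925 with 12 and 4. Gm22239 had 4 and 3 counts. The annotation used here also names 12 family members in the intron whose IDs have no row in the tables. These are Mir466b-1, Mir466c-1, Mir466e and Mir669a-4 to Mir669a-12, and they were not analysed here. Of the 1973 rows, 1894 had a name in that annotation, and whether the unnamed rows hold family members was not tested. Mir297-1 on chromosome 7, whose symbol the selection leaves out, had no count.

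On the opposite strand no read was counted at any of the 68 loci. Elsewhere, 63 of 1905 rows (3.31%) had such reads, which were 2.28% and 2.12% of all counted reads in the 2 libraries.

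At each of the 466 loci with at least 10 counts, the 2 libraries were compared by an exact binomial test, two-sided and conditional on the locus total, with Benjamini-Hochberg adjustment. Only libraries are compared here, not conditions. It called 4 of the 10 tested family loci, all higher in replicate 2. Over all tested loci it called 38.0%, and 19.3% were called higher in replicate 2. As a log2 ratio, replicate 2 over replicate 1 had a median of 0.12 over the 10 loci and 0.0048 over all tested loci.

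Mir467d was higher in replicate 2 by a log2 ratio of 0.41 (95% interval 0.36 to 0.47, exact binomial adjusted p = 6.42e-51). Mir467c followed at 0.36 (0.31 to 0.41, exact binomial adjusted p = 2.52e-46), and Mir467e at 0.12 (0.06 to 0.18, exact binomial adjusted p = 0.000114). Mir669l passed at 0.14 (0.02 to 0.26, exact binomial adjusted p = 0.0426), and Mir669o at 0.11 did not (exact binomial adjusted p = 0.0666). The interval of Mir467e lay below those of Mir467c and Mir467d. Mir669c stood at -0.01 (-0.22 to 0.21), Mir466n at 0.12 (-0.30 to 0.53) and Mir669e at 0.21 (-0.23 to 0.64). At Mir669h (-0.75, -1.67 to 0.09) and Mir297a-2 (-0.50, -1.51 to 0.43) the counts were too low to resolve even sizeable differences. None of the 4 called loci differed by 1.5-fold, the largest being Mir467d at 1.33-fold, whereas 7.08% of all tested loci were called and differed at least that much.

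Scaling bears on these calls. With total counts in place of trimmed mean of M values (TMM) factors, 2 of the 10 loci were called, Mir467c and Mir467d, and the ratios of Mir467e and Mir669l fell to 0.05 and 0.07, with exact binomial adjusted p = 0.137 and 0.345.

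**Figure D4:**
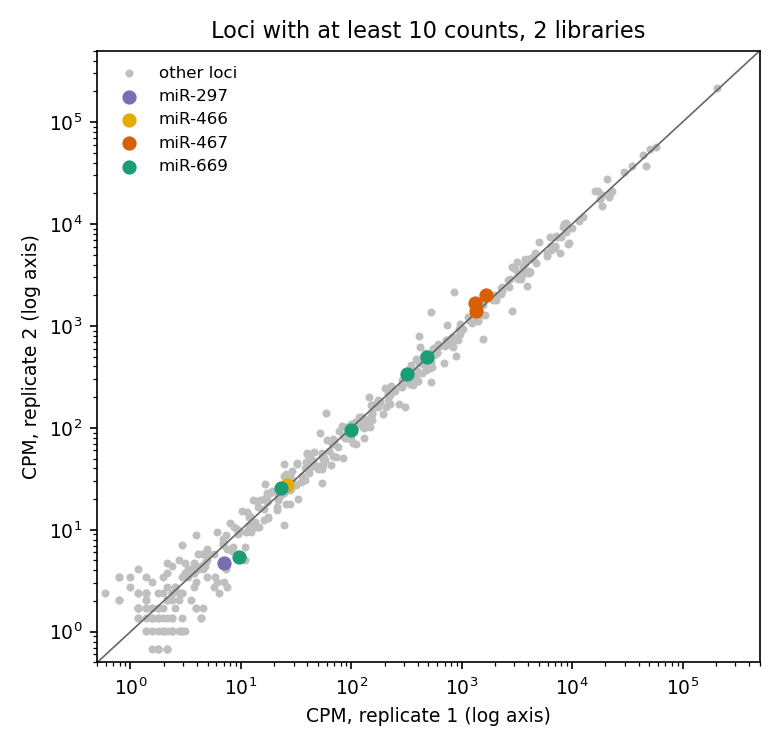
CPM in replicate 2 against CPM in replicate 1 (both log axes) for loci with at least 10 counts, the 10 family loci coloured and other loci grey, with the line of equality. Mir467c and Mir467d lie above the line, the other miR-467 and miR-669 loci from 23.2 CPM upwards lie close to it, and 7 other loci at or under 0.5 CPM in a library are not drawn.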

How the data were processed

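The authors deposited raw read counts per gene, 1 table per library, on assembly mm10 with gene annotation M4, as their deposited notes state. The count tables carry no header. Details of the aligner, counter and trimming were not given in the sources used here. Column 2 equalled the sum of columns 3 and 4 in 3946 of 3946 rows, and column 3 was read from the values as same-strand counts. Summary rows for unmapped (16.1% and 15.7% of reads), multimapping (34.4% and 37.7%) and unassigned reads (3.79% and 3.80%) stayed out of totals and tests.

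Symbols, coordinates and hairpins came from GENCODE M21, on the same assembly, and all 68 loci had the same ID version. Depth was 5093743 and 2935841 counts. TMM factors came from edgeR 4.0.16 on loci with at least 10 counts, with size factors of DESeq2 1.42.0 as an alternative, and the exact binomial test across all loci from scipy 1.17.1 (R 4.3.3, Python 3.11.15). The test was also run on simulated counts with known folds and counting error only. That run cannot show how the test behaves with other spread between libraries. Identity came from a global alignment without end gap costs (Biopython 1.88). Named loci are all with at least 10 counts, the 3 highest of a family with fewer such loci, and microRNA rows of the intron outside the families. Others named were chosen after their values were seen. The members and lists were chosen with earlier results of these data known.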

Additional observations from a re-analysis of the deposited data

How the results depend on the processing

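With multimapping reads in the denominator the shares of all counts fell to 0.259% for miR-467, 0.0523% for miR-669, 0.00160% for miR-466, 0.000349% for miR-297 and 0.314% for loci in Sfmbt2. With unstranded counts miR-669 stood at 0.0928%. With only hairpins that share no run of 20 nt, miR-466 kept 9.82e-06% and miR-467, miR-669 and miR-297 kept 0. A minimum of 1 count in each replicate gave 16 loci in place of 10. Loci called between the libraries numbered 2 with total counts only and 0 with a 1.5-fold difference required, and 3 to 5 with the other alternatives. The ratio of Mir466n reversed to -0.19 with replicate 1 thinned to equal depth in a single random draw. That value lies within its interval at full depth (-0.30 to 0.53). The call of Mir669l ended with DESeq2 size factors (exact binomial adjusted p = 0.0518) and with no filter (0.0632), and Mir669o passed with a minimum of 50 counts (0.04999). The cause was not tested. Loci outside Sfmbt2 had no read on either strand, so none of the alternatives could add a count there. Windows of 18 and 25 nt left 20 and 19 hairpins without an own window. Leaving out each replicate gave shares of 0.433% and 0.511% for miR-467 and 0.530% and 0.611% for loci in Sfmbt2. No paired analysis was possible because there is 1 group. Thinning replicate 1, or leaving out either replicate, left 10 loci at the count minimum.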
